A study of Rattus norvegicus with 20 samples.

Results

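The genes described here encode proteins of the airway mucus and of the defence it carries: Muc5ac, Pigr, Slpi, Bpifb1, Bpifb4, Dmbt1, Lyz2 and Ltf. They were chosen by name for this role, 8 genes in all, and 7 of them had exactly 1 probe set each among the 31042 probe sets and 14217 named genes measured. The annotation used here named no probe set for Ltf, lactoferrin, so its level was not analysed here. Signals came from 20 Affymetrix rat expression arrays, 1 per sample, of nasal epithelium from adult Sprague-Dawley rats, an outbred stock, that were untreated, carried no genetic modification and had no disease per the labels. There were 6 male olfactory arrays (rats of 11, 13 and 14 weeks), 6 male respiratory arrays (11, 13 and 14 weeks), 2 female olfactory arrays (13 and 14 weeks) and 6 female respiratory arrays (11, 13 and 14 weeks). By the animal named in the labels they came from 13 rats, of which 7 gave both tissues (5 males and 2 females), and arrays are called here by sex, tissue and the number of the rat. The epithelium was taken by hand from the septum and the turbinates, so each sample is a mixture of surface, gland, nerve and immune cells of a nasal region.

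The nasal lining is covered by mucus whose gel is built by secreted mucins, and goblet cells and glands release into it proteins that bind, lyse or disarm microbes. Antibodies of the IgA class reach this layer through a receptor that carries them across the epithelium. Respiratory epithelium, ciliated and rich in goblet cells, warms and cleans the air, while olfactory epithelium holds the sensory neurons and is wetted by its own glands, known as Bowman's glands. A lower signal in a mixed sample can come from fewer cells of a type or from less RNA per cell, and these cannot be told apart here.

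By olfactory neuron markers the arrays went with their labelled tissues. Mean log2(signal + 16) over 7 olfactory neuron markers lay between 12.04 and 12.95 on the male olfactory arrays and between 8.10 and 10.21 on the male respiratory arrays, and in females it was 12.63 and 12.84 on the olfactory arrays against 8.44 to 11.32 on the respiratory arrays. Respiratory samples thus held some olfactory neuron RNA, most on female respiratory 7. The mean over 8 squamous cell markers was 9.031 on female olfactory 8, within the 8.305 to 11.025 of the female respiratory arrays. It was 6.041 on female olfactory 6 and 5.955 to 6.753 on the male olfactory arrays. Female olfactory 8 also had the highest olfactory signals of Muc5ac, Pigr, Slpi and Bpifb1, but not of Dmbt1, Lyz2 or Bpifb4, and a link was not tested. RNA integrity numbers grade the breakdown of RNA, and within each sex they did not overlap between the tissues. They ran from 8.2 to 8.8 in male olfactory (n = 5) against 9.1 to 9.3 in male respiratory samples (n = 4). In females they were 8.3 in both olfactory samples against 8.7 to 9.3 in respiratory samples (n = 6). Across the sexes male olfactory samples, up to 8.8, overlapped female respiratory samples, from 8.7. On the second principal component (15.85% of the variance) female respiratory 8 and male respiratory 7 stood apart, at -113.35 and -97.55, from the other respiratory arrays at -5.44 to 32.61. The olfactory arrays were spread widely on it as well, from -68.09 (male olfactory 10) to 84.41 (male olfactory 2). Those of 11-week males lay at 40.58 to 84.41 and the other male olfactory arrays at -68.09 to 4.04. Several results below are given with and without both respiratory arrays that stood apart.

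Of the 7 measured genes, 6 were lower and 1 was higher in male olfactory than in male respiratory epithelium, where 17.8% of all named genes were called lower and 14.0% higher. A call is an adjusted p under 0.05 in limma, two-sided, with Benjamini-Hochberg adjustment over all probe sets. In females 5 were lower, 1 was higher and Slpi was not called, against 11.6% of named genes called lower and 10.9% higher. Centring each array on its median, in place of the authors' scaling, moved the median difference of all named genes to 0.25 in females, against -0.03 as deposited, and the share of female calls that were higher to 68.3%, against 48.5%, and it changed no sign and no call of the 7 genes. The tissues did not overlap for any of the 7 genes in males, as was so for 17.8% of named genes, and for 6 of the 7 in females, against 36.8% of named genes in that smaller design. In all 7 rats with both tissues each of the 7 genes went the same way as the group means. Without both arrays that stood apart every male call stood, with log2 differences from -5.81 for Muc5ac to 3.19 for Bpifb4. The gene that was higher was Bpifb4, a member of the same protein family as Bpifb1, which was lower.

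**Figure D1:**
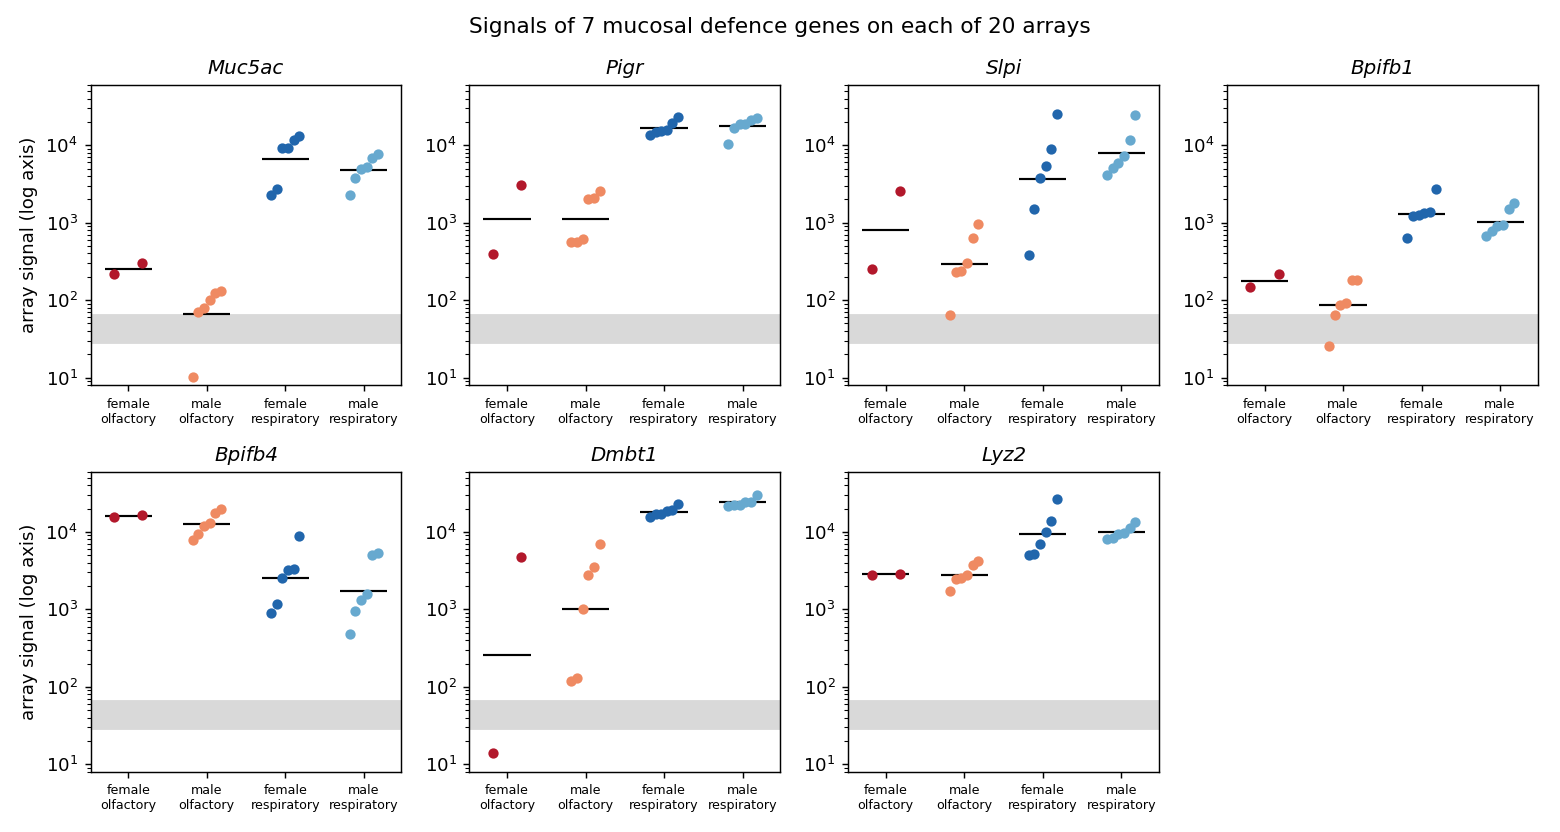
Array signal (log axis, scaled by the authors) of each gene in female olfactory, male olfactory, female respiratory and male respiratory samples, with 1 point per array, a line at the geometric mean and a grey band for the range of the array backgrounds. Within each sex olfactory points lie below respiratory points for Muc5ac, Pigr, Bpifb1, Dmbt1 and Lyz2 and above them for Bpifb4, Slpi overlaps in females, and Dmbt1 spreads from 118 to 6943 in male olfactory arrays against 21727 to 30336 in male respiratory arrays.

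Promoters were set side by side because Bpifb1 and Bpifb4 lie in the same gene cluster and moved in opposite directions. That of Pigr was added because Pigr, like Bpifb1, was lower in olfactory epithelium. The sequences are RefSeq's, from the GRCr8 build, and give the 250 bases before the start that the promoter table holds, on the plus strand, 5′ to 3′. Capitals mark matches, on either strand, to the letters of a TATA box (TATAAA), an AP-1 site (TGANTCA), a STAT6 site (TTC and GAA with 4 free bases between), an NF-kB site (GGGA and CC with 4 free bases between) or a forkhead site (TGTTTNC). The windows are chr3:163132901-163133150 for Bpifb1, chr3:162883486-162883735 for Bpifb4 and chr13:44850932-44851181 for Pigr.
Bpifb1: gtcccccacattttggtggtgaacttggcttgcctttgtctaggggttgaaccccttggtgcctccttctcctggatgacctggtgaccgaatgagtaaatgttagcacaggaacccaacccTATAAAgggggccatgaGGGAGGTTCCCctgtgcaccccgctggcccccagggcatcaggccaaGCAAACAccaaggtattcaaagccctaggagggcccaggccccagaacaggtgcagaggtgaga
Bpifb4: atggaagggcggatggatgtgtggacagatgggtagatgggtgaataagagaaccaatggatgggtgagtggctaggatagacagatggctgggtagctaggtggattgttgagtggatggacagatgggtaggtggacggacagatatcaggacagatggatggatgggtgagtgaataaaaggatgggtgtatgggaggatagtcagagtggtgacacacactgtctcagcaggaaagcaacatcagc
Pigr: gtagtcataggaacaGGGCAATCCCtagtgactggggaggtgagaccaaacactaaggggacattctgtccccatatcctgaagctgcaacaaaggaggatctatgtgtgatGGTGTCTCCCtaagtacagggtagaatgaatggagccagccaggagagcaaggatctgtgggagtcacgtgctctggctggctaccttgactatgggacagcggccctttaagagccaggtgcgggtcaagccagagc

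The Bpifb1 window held a TATA match whose first base lies at -128 from the start, a pair of overlapping NF-kB matches at -111 and -110 and a forkhead match at -64. The Pigr window held NF-kB matches at -235 and -138, and the Bpifb4 window held no match to the 5 motifs. Such letters are common: among 33469 rat promoters of this length 12.9% held the TATA letters, 16.4% the NF-kB letters, 18.3% the forkhead letters, 6.34% the AP-1 letters and 6.25% the STAT6 letters. A looser NF-kB form, GGG and CC with 5 free bases between, was searched before the stricter one and matched in 42.3% of promoters and in 3 of the 5 member promoters in the table, among them those of Bpifb1 and Pigr, and the stricter form was taken after these matches were seen. The Bpifb4 window was instead filled with a short repeat: the letters GATGG occurred 11 times on either strand, a count reached by 0.0149% of the promoters (5 of 33469), and these letters were chosen after the sequence was seen. The Bpifb4 window lies within the span that the RefSeq gene table gives for the gene, and the Pigr window overlaps that of its gene, so these starts need not be those used in nasal epithelium. Lyz2 was also lower in olfactory epithelium, like Bpifb1 and Pigr, and its promoter, not printed, held no match to the 5 motifs. The promoter of Ltf held none either, and those of Muc5ac, Slpi and Dmbt1 were not analysed here.

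Muc5ac, the gel-forming mucin of airway goblet cells, had the largest tissue difference of the 7 genes in males. Its signal ran from 10.1 to 131 with a median of 89.6 on the 6 male olfactory arrays, against 2241 to 7774 with a median of 5081 on the 6 male respiratory arrays. In females it was 216 and 302 on the olfactory arrays, against 2298 to 13198 with a median of 9157 on the respiratory arrays. Every olfactory array was thus below every respiratory array of its sex, and on male olfactory 2 (10.1) the signal was under the array background. The log2 difference was -5.74 in males (SE 0.44, adjusted p 4.12e-09) and -4.60 in females (SE 0.62, adjusted p 2.61e-05), or 53.5-fold and 24.3-fold lower in olfactory epithelium on the log2(signal + 16) scale. Within the same rat the difference ran from -8.04 to -3.12 over 7 rats.

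Other genes of mucus were lower in males in smaller steps. Of 19 measured genes from a list of mucins and goblet cell genes 1 was higher and 11 were lower. The median log2 difference was -1.16, against -0.05 over all named genes. In females 0 were higher and 5 lower by limma, with a median of -0.84, against -0.03 over all named genes. Over all named genes 14.0% were called higher and 17.8% lower in males, and 10.9% and 11.6% in females. Galnt6, an enzyme that starts sugar chains on mucins, was at -2.02 (SE 0.25, adjusted p 1.74e-06), and Clca1, a protein secreted with goblet cell mucus, was at -1.94 (SE 0.55, adjusted p 0.0104). Muc13, a membrane-bound mucin, was at background on all 6 male olfactory arrays and at least 2.49-fold lower there (adjusted p 8.99e-04). The gene that was higher was the secreted mucin Muc2, at 2.41 (SE 0.42, adjusted p 1.43e-04), with a mean signal of 2685 in male olfactory against 609 in male respiratory arrays. Its difference in females, 1.65 (SE 0.60), did not pass (adjusted p 0.0576). A pair of mucins was picked after the values were seen: Muc1, which spans the cell membrane, was at -1.82 (SE 0.21, adjusted p 5.35e-07), and Muc5b, the other main gel-forming mucin of airways, averaged 6097 in male olfactory and 4573 in male respiratory arrays and was not called (0.54, SE 0.31, adjusted p 0.224). Of the gel-forming mucins measured here, then, Muc5ac was lower, Muc2 was higher and Muc5b was not called in males. Muc6 and Muc19, also on the list, were not among its measured genes.

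Pigr, the receptor that carries IgA and IgM through epithelial cells into the mucus, was lower in olfactory epithelium of both sexes. Its signal ran from 554 to 2582 with a median of 1323 on male olfactory arrays, against 10368 to 22531 with a median of 18883 on male respiratory arrays. On the arrays from females it was 392 and 3094 on the olfactory arrays, against 13553 to 22888 with a median of 15515 on the respiratory arrays. The tissues did not overlap in either sex, and the spread was wider among the olfactory arrays (4.66-fold between the highest and the lowest in male olfactory, against 2.17-fold in male respiratory). Limma put the log2 difference at -3.93 in males (SE 0.42, adjusted p 2.70e-07) and -3.89 in females (SE 0.59, adjusted p 8.82e-05). The female value moved with the olfactory array left out, to -5.36 without female olfactory 8 (adjusted p 6.49e-05) and -2.43 without female olfactory 6 (adjusted p 0.0275). In such fits 1 female olfactory array is left, which is assumed to vary like the other groups.

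Genes of antibody-making cells and of their recruitment were also lower. Of 11 measured genes on that list 10 were lower and 0 higher in males and 6 were lower and 0 higher in females by limma. Among all named genes 17.8% were called lower in males and 11.6% in females. The median log2 differences of the list were -1.33 and -1.5. The gene outside the count in males, Cd79b, was at -1.33 (SE 0.61, adjusted p 0.119). Jchain, which joins antibody units into the form that Pigr carries, averaged 415 in male olfactory against 2554 in male respiratory arrays and 641 in female olfactory against 3838 in female respiratory arrays. Its log2 difference was -2.56 in males (SE 0.39, adjusted p 3.06e-05). Ccl28, a chemokine that draws IgA cells to mucosa, was at -1.37 (SE 0.23, adjusted p 6.70e-05). Mzb1, a plasma cell chaperone, was at -1.66 (SE 0.54, adjusted p 0.0272), and Ms4a1, the B cell marker CD20, was at -1.55 (SE 0.48, adjusted p 0.0182). The calls of Mzb1 and Ms4a1 rested on single arrays: Mzb1 was not called when any 1 of male olfactory 1 (adjusted p 0.0738), male respiratory 3 (0.0576), male olfactory 4 (0.0698) or male respiratory 7 (0.0694) was left out, and Ms4a1 was not called without male olfactory 7 (0.0508).

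Slpi, an inhibitor that protects the mucosa from neutrophil elastase and also acts on bacteria, spanned a 66.0-fold range between rats in female respiratory epithelium. Its signal ran from 64.3 to 958 with a median of 270.4 on male olfactory arrays, against 4071 to 24662 with a median of 6639 on male respiratory arrays. Female rats had 254 and 2577 on the olfactory arrays, against 385 to 25387 with a median of 4531 on the respiratory arrays. The tissues were apart in males and overlapped in females, where female respiratory 6 and 3, at 385 and 1486, were below female olfactory 8. The log2 difference was -4.66 in males (SE 0.77, adjusted p 6.92e-05) and -2.16 in females (SE 1.09, adjusted p 0.18), which was called, among the alternatives run, only when female respiratory 6 was left out (-2.80, adjusted p 0.0472). Leaving out other single arrays gave female values between -3.79 (without female olfactory 8, adjusted p 0.086) and -0.53 (without female olfactory 6, adjusted p 0.882). The highest respiratory values belonged to both arrays that stood apart, male respiratory 7 (24662) and female respiratory 8 (25387), and without them the difference was -4.33 in males (adjusted p 5.63e-05) and -1.61 in females (adjusted p 0.235).

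Lyz2, lysozyme, which cuts the bacterial cell wall and is made by macrophages as well as glands, had the smallest tissue difference of the 7 genes. Its signal ran from 1708 to 4278 with a median of 2636 on male olfactory arrays, against 8086 to 13460 with a median of 9481 on male respiratory arrays. In females it was 2849 and 2801 on the olfactory arrays, against 5062 to 26817 with a median of 8486 on the respiratory arrays. The tissues did not overlap, and again female respiratory 8 was the highest array, at 26817. Limma put the log2 difference at -1.82 in males (SE 0.31, adjusted p 1.21e-04) and -1.72 in females (SE 0.45, adjusted p 0.00908), and without both arrays that stood apart it was -1.42 in females (adjusted p 0.0046). In females the call ended when either olfactory array was left out (adjusted p 0.0784 without female olfactory 8 and 0.0943 without female olfactory 6).

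Dmbt1, a large scavenger receptor protein of secretions that binds bacteria, had a narrow range in respiratory epithelium and scattered signals in olfactory epithelium. On the male olfactory arrays it was 1013 (rat 1), 131 (rat 2), 3499 (rat 3), 118 (rat 4), 2775 (rat 7) and 6943 (rat 10), against 21727 to 30336 with a median of 23310 on the male respiratory arrays. On the arrays from females it was 14.2 and 4718 on the olfactory arrays, against 15762 to 22735 with a median of 18058 on the respiratory arrays. The highest olfactory array was thus 58.7 times the lowest in males, while the highest respiratory array was 1.40 times the lowest. On female olfactory 6 the signal of 14.2 was under the array background. The log2 difference was -4.51 in males (SE 0.92, adjusted p 6.69e-04) and -5.60 in females (SE 1.30, adjusted p 0.00415). The female value rested on that array, as it was -1.96 and not called without it (adjusted p 0.433).

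Over the 8 olfactory arrays Dmbt1 and Pigr were high and low on the same arrays. Pearson's r of their log2 signals was 0.827 (exact permutation p 0.0201, adjusted p 0.632 over 42 relations, n = 8) and Spearman's rho was 0.952 (exact permutation p 0.00114, adjusted p 0.0479). Without the 2 arrays farthest from the median Pigr signal r was 0.723. The same pair had r = -0.253 over the 12 respiratory arrays (permutation p 0.427). The rank relation alone passed the adjustment.

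Bpifb1 and Bpifb4 belong to the BPI fold family, secreted proteins built like the bactericidal protein BPI, several of which are abundant in airway secretions. Bpifb1, known from airway mucous cells, ran from 25.7 to 183 with a median of 88.5 on male olfactory arrays, against 672 to 1780 with a median of 908 on male respiratory arrays. Female rats had 149 and 214 on the olfactory arrays, against 627 to 2740 with a median of 1288 on the respiratory arrays. The tissues did not overlap, and on male olfactory 4, at 25.7, the signal was under the array background. Limma put the log2 difference at -3.30 in males (SE 0.35, adjusted p 2.76e-07) and -2.75 in females (SE 0.50, adjusted p 5.18e-04).

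Bpifb4, which the gene table also lists under its older name RY2G5, went the other way. Its signal ran from 7938 to 19528 with a median of 12501 on male olfactory arrays, against 478 to 5374 with a median of 1431 on male respiratory arrays. In females it was 15753 and 16720 on the olfactory arrays, against 901 to 8832 with a median of 2882 on the respiratory arrays. Olfactory arrays lay above respiratory arrays without overlap in both sexes, and here the respiratory arrays were the scattered ones, with an 11.2-fold range in males. The log2 difference was 2.87 in males (SE 0.52, adjusted p 1.98e-04) and 2.68 in females (SE 0.73, adjusted p 0.0132), and within the same rat it ran from 1.23 to 4.74. In females the call ended when either olfactory array was left out (adjusted p 0.0999 without female olfactory 8 and 0.112 without female olfactory 6).

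**Figure D2:**
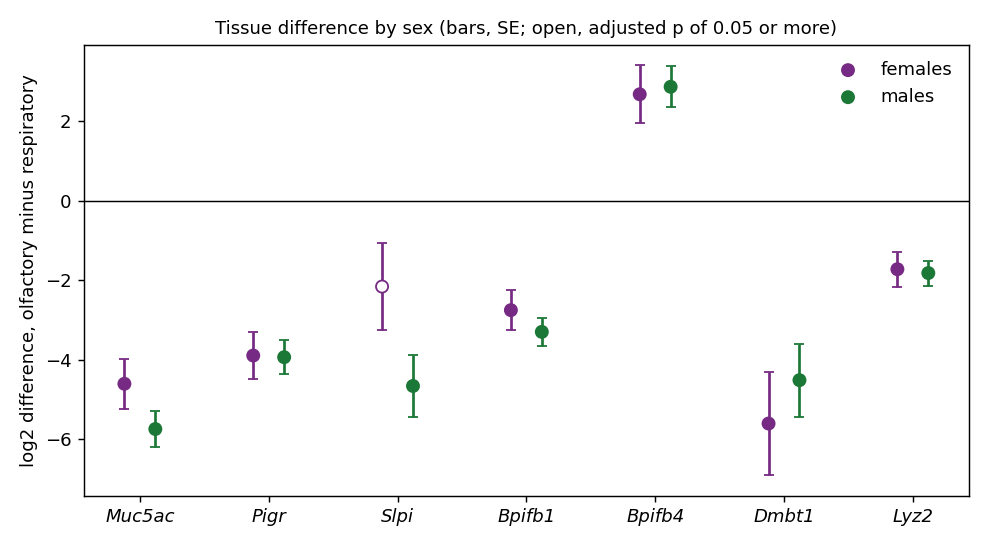
Log2 difference between olfactory and respiratory epithelium (olfactory minus respiratory, on log2(signal + 16)) of each gene in females and males, with bars of 1 SE of limma's fit and open points where the adjusted p was 0.05 or more. Bpifb4 lies above 0 at 2.68 in females and 2.87 in males, the other genes lie below 0, and Slpi in females is the open point at -2.16.

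The RefSeq gene table places 12 BPI fold genes in a row on chromosome 3, in the order Bpifb2, Bpifb6, Bpifb3, Bpifb4, Bpifa6, Bpifa2, Bpifa2f, Bpifa3, Bpifa1, Bpifa5, Bpifb1 and Bpifb5, and 8 of them were measured. The comparison along this order was chosen after the values were seen. Bpifb6, which lies on the same side of the row as Bpifb4, was likewise higher in male olfactory epithelium, at 2.29 (SE 0.62, adjusted p 0.0077). Its signal ran from 6180 to 18384 on male olfactory arrays, against 271 to 5807 on male respiratory arrays, without overlap. In females its difference was 2.02 (SE 0.87) and was not called (adjusted p 0.115). Bpifa1, an abundant airway surface protein also called SPLUNC1, lay high in both tissues, from 21848 to 29711 on male olfactory against 24872 to 35020 on male respiratory arrays, and was not called (-0.18, SE 0.18, adjusted p 0.54). Its neighbour Bpifa5 was at 0.52 (SE 0.23, adjusted p 0.107), next to Bpifb1 at -3.30. Bpifb2, Bpifa2 and Bpifa2f had mean signals of 25.7, 51.2 and 25.8 in male olfactory against 39.1, 30.6 and 20.2 in male respiratory arrays, near the array backgrounds of 28.2 to 64.9, and were not called.

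**Figure D3:**
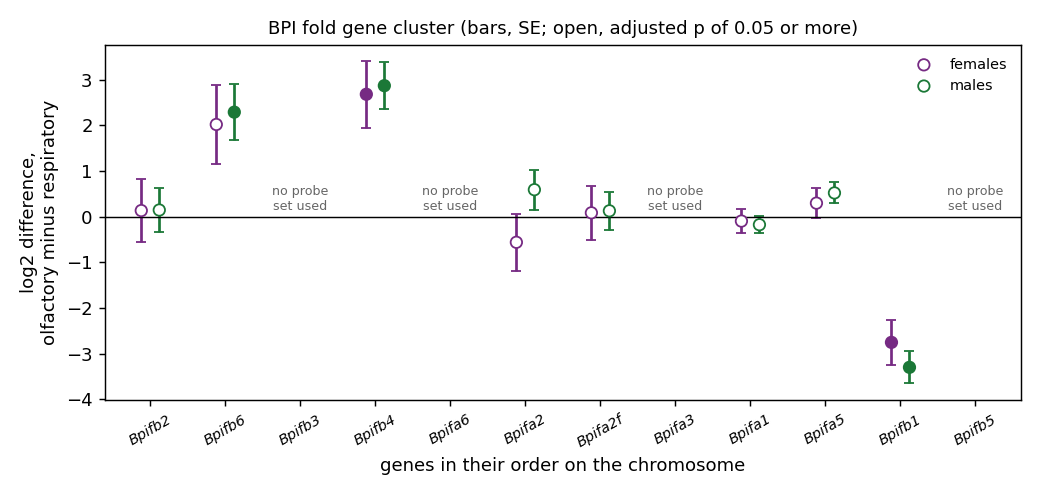
Log2 difference, olfactory minus respiratory, of the 8 measured BPI fold genes in their order along chromosome 3, in females and males, with bars of 1 SE and open points where the adjusted p was 0.05 or more. Bpifb6 and Bpifb4 lie above 0 (2.29 and 2.87 in males), Bpifb1 lies at -3.30 in males, and genes between them lie near 0.

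Of the 8 further BPI fold genes measured, in the cluster or elsewhere, 1 was higher (Bpifb6) and 2 were lower in males, with a median of 0.14, where 14.0% of named genes were higher and 17.8% lower. The lower ones were the plasma lipid transfer protein gene Pltp (-1.29, SE 0.29, adjusted p 0.00161) and Lbp, whose protein binds bacterial endotoxin (-1.11, SE 0.32, adjusted p 0.0116). In females 0 of the 8 were called by limma. With the RNA integrity number in the fit Bpifb6 (adjusted p 0.354), Lbp (0.134) and Pltp (0.128) were not called.

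Among 25 measured antimicrobial and antiprotease genes, 2 were higher and 12 lower in males, with a median log2 difference of -1.07. In females 3 were higher and 6 lower, with a median of -0.84. The shares of all named genes were 14.0% higher and 17.8% lower in males, and 10.9% and 11.6% in females. The counts of higher genes on this list were thus close to or below the general shares. Defb4, a defensin, was at -3.37 (SE 0.75, adjusted p 0.0015), with mean signals of 18.4 in male olfactory against 460 in male respiratory arrays. Lcn2, which withholds iron from bacteria, was at -2.58 (SE 0.43, adjusted p 7.46e-05), and the chitinase gene Chia was at -2.55 (SE 0.40, adjusted p 3.78e-05). The genes that were higher, Wfdc3 (2.67, SE 0.57, adjusted p 0.00103) and Wfdc18 (2.30, SE 0.42, adjusted p 2.27e-04), share with Slpi the WAP fold of antiproteases, and Wfdc18 averaged 16500 in male olfactory against 3957 in male respiratory arrays. In females the higher genes were these and the protease inhibitor gene Serpina1 (2.36, adjusted p 0.0374). The other measured Wfdc genes of the list, Wfdc1 (-1.41, SE 0.38, adjusted p 0.00748) and Wfdc2 (-1.07, SE 0.21, adjusted p 4.95e-04), named here after their values were seen, were lower in males.

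Genes known to induce mucins or defence proteins had 16 of 25 measured members lower and 0 higher in males. In females 11 were lower and 0 higher by limma, and the medians were -1.08 in males and -0.89 in females. The shares of all named genes called lower were 17.8% in males and 11.6% in females. Ehf, an epithelial transcription factor, was at -2.81 (SE 0.41, adjusted p 1.54e-05), and Tlr2, a receptor for bacterial lipoproteins, was at -2.27 (SE 0.36, adjusted p 4.04e-05). The cytokine gene Il1b was at -2.65 (SE 0.82, adjusted p 0.0192). Tnf, another cytokine gene, was at background on all male olfactory arrays and at least 4.56-fold lower there (adjusted p 2.47e-06). Among inducers of Muc5ac known from airways, picked here after the values were seen, Il13 was not called (0.81, SE 0.38, adjusted p 0.13), and its mean signals of 37.8 in male olfactory and 12.9 in male respiratory arrays lay near background, while Egfr was at -1.29 (SE 0.20, adjusted p 4.05e-05).

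**Figure D4:**
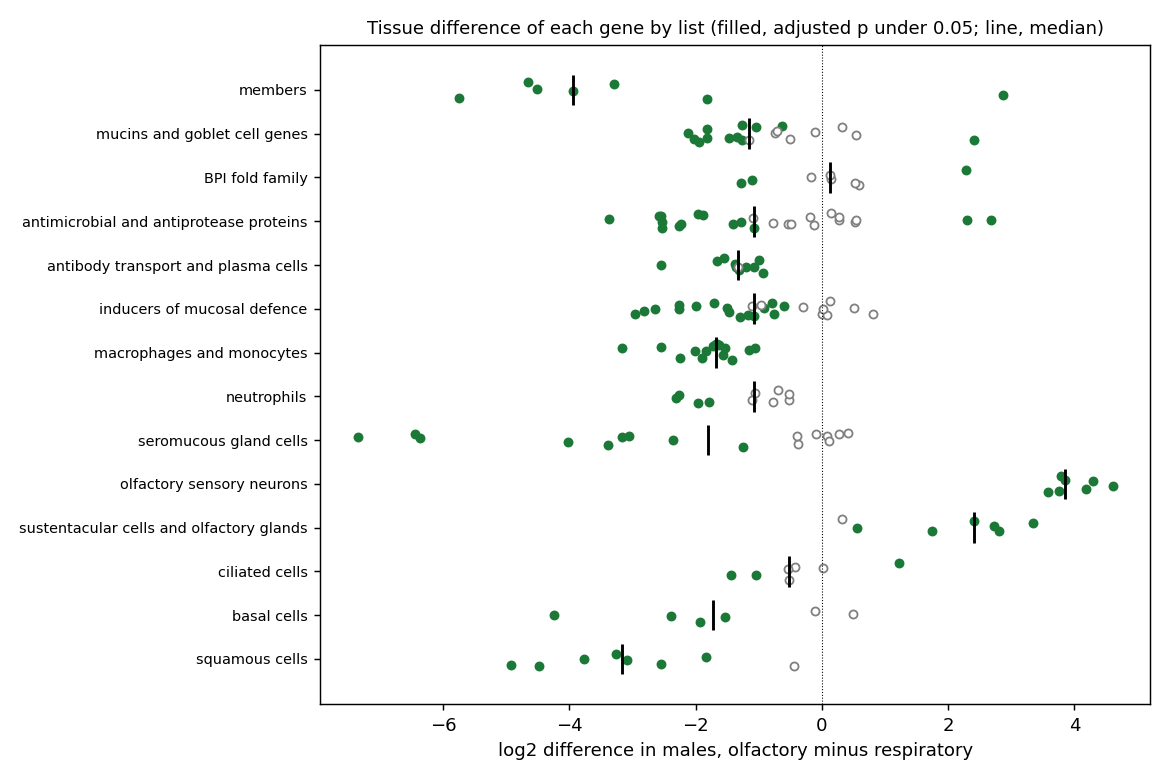
Log2 difference in males, olfactory minus respiratory, of each measured gene by list, filled where the adjusted p was under 0.05, with a line at the list's median. The 7 genes of this report have a median of -3.93, macrophage and monocyte markers -1.68 and olfactory neuron markers 3.84.

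Markers of other cells moved with the tissue beside these genes. Beside the marker counts below, 17.8% of all named genes were called lower and 14.0% higher in males, and 11.6% and 10.9% in females. Of 15 measured macrophage and monocyte markers, all were lower in male olfactory epithelium, with a median of -1.68 (Cd14 -3.16, Mpeg1 -2.54 and Cd68 -2.25), and 9 were lower and 0 higher in females by limma. Their mean log2 signal ran from 7.94 to 8.59 on male olfactory arrays against 9.49 to 10.27 on male respiratory arrays, and from 7.84 to 8.02 on female olfactory against 8.82 to 10.63 on female respiratory arrays. Of 10 neutrophil markers 4 were lower and 0 higher in males: Mmp8 (-2.31), S100a9 (-2.27), S100a8 (-1.97, adjusted p 0.0346) and Mmp9 (-1.79), and their mean log2 signal was 5.80 to 6.70 on male olfactory against 7.20 to 8.23 on male respiratory arrays. S100a8 and S100a9 are also counted among the lower antimicrobial genes above, so these counts are not separate. Camp and Lpo, not called, are shared by that list with the neutrophil and the gland list. S100a8 was not called when any 1 of male olfactory 1, 2 or 7 or male respiratory 3, 4 or 7 was left out, with adjusted p values up to 0.0769. Of 16 seromucous gland genes 9 were lower and 0 higher in males, with a median of -1.81, among them Mup5 (-7.35), Csn3 (-6.45), Pip (-6.36) and Obp1f (-4.02), and the list's mean log2 signal was 7.13 to 8.13 on male olfactory against 9.69 to 10.29 on male respiratory arrays. Obp1f was at -0.75 in females (adjusted p 0.613).

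Of 6 basal cell markers 4 were lower (Krt15 -4.24, Itga6 -2.38, Krt5 -1.93 and Krt14 -1.53) and of 8 squamous cell markers 7 were lower, with Krtdap at -4.92, Sprr3 at -4.48 and Krt4 at -3.25, and Krt13 at least 7.05-fold lower. Ciliated cell markers were divided, with Tekt2 higher (1.22) and Ccdc113 and Dnai1 lower (-1.44 and -1.04) of 7 measured. Olfactory neuron markers were higher in 7 of 7 (median 3.84, with Gng13 at 4.61, Ano2 at 4.30, Cnga2 at 4.18 and Omp at 3.84), and sustentacular and olfactory gland genes in 6 of 7 (Cyp1a2 3.35, Ugt2a1 2.80, Ermn 2.73 and Muc2 2.41, which is also on the mucin list). All values here are log2 differences in males. The part of cell numbers in the differences of the 7 genes was not tested.

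Within respiratory epithelium the same genes differed between rats, and 42 relations were computed per tissue: the 21 pairs of the 7 genes and each gene against the mean log2 signal of macrophage, gland and olfactory neuron markers. Pearson's r and Spearman's rho are given with permutation p values from 100000 permutations, two-sided and adjusted over the 42, and the relations were chosen after the values were seen. Slpi was higher where macrophage markers were higher, with r = 0.903 (permutation p 2.00e-05, adjusted p 4.20e-04, n = 12) and rho = 0.944 (permutation p 3.00e-05, adjusted p 0.00126). Within sexes r was 0.909 in females and 0.793 in males, it was 0.846 without the 2 arrays farthest from the median Slpi signal, and it was 0.877 without both arrays that stood apart. Lyz2 followed the same markers, with r = 0.902 (permutation p 1e-05, the smallest these permutations can give, adjusted p 4.20e-04) and rho = 0.895 (permutation p 1.80e-04, adjusted p 0.00252), and r was 0.966 in females, 0.72 in males, 0.895 without the 2 farthest arrays and 0.96 without both arrays that stood apart.

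Muc5ac ran against these genes. Its r with macrophage markers was -0.849 (permutation p 8.20e-04, adjusted p 0.0115) and rho was -0.902 (permutation p 1.70e-04, adjusted p 0.00252), with -0.866 in females, -0.763 in males, -0.871 without the 2 arrays farthest from the median Muc5ac signal and -0.812 without both arrays that stood apart. With Slpi its r was -0.734 (permutation p 0.00404, adjusted p 0.0233) and rho -0.818 (permutation p 0.00178, adjusted p 0.015), and within sexes r was -0.774 in females and -0.482 in males. With Lyz2 its r was -0.733 (permutation p 0.00443, adjusted p 0.0233) and rho -0.755 (permutation p 0.00586, adjusted p 0.0352), with -0.819 in females and -0.477 in males. Without the 2 farthest arrays these values were -0.864 for Slpi and -0.784 for Lyz2, and without both arrays that stood apart they were -0.671 and -0.732. Slpi and Lyz2 rose and fell on the same arrays, with r = 0.816 (permutation p 0.00174, adjusted p 0.0178) and rho = 0.853 (permutation p 6.80e-04, adjusted p 0.00714). Their r was higher in females (0.922) than in males (0.372), a difference that was not tested. It was 0.723 without the 2 arrays farthest from the median Slpi signal and 0.899 without both arrays that stood apart. All arrays share a scaling to a common mean, and relations between signals on the same array share that step. Rat age was not part of these relations. In females Muc5ac was 2746 and 2298 on the respiratory arrays of the 14-week rats 8 and 9. It was 9122 to 13198 on those of 11 and 13 weeks. Macrophage markers averaged 10.63 and 10.35 on the former against 8.82 to 9.78 on the latter. In males the lowest respiratory Muc5ac, 2241, was that of a 13-week rat, and a link with age was not tested.

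**Figure D5:**
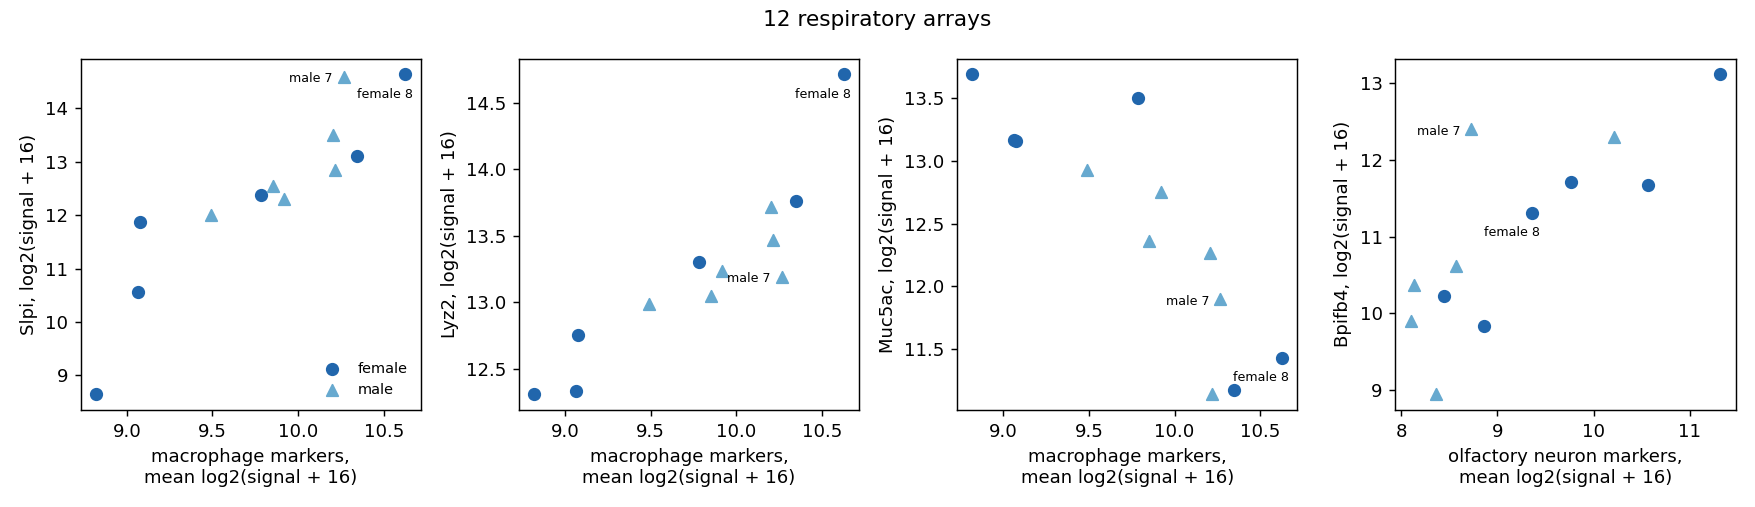
Log2(signal + 16) of Slpi, Lyz2 and Muc5ac against the mean of 15 macrophage and monocyte markers, and of Bpifb4 against the mean of 7 olfactory neuron markers, on 12 respiratory arrays (circles female, triangles male). Slpi and Lyz2 climb with the macrophage markers (r = 0.903 and 0.902), Muc5ac declines (r = -0.849), and Bpifb4 climbs with the neuron markers (r = 0.789).

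Bpifb4 in respiratory samples went with the olfactory neuron markers. Its r with them was 0.789 (permutation p 0.00212, adjusted p 0.0178, n = 12) and rho was 0.727 (permutation p 0.00952, adjusted p 0.05), with r = 0.929 in females, 0.699 in males, 0.689 without the 2 arrays farthest from the median Bpifb4 signal and 0.904 without both arrays that stood apart. Female respiratory 7, the respiratory array with the most neuron marker signal (11.32), also had the most Bpifb4 (8832). Over the 8 olfactory arrays the same relation had the opposite sign and did not pass, with r = -0.644 (exact permutation p 0.0707, adjusted p 0.632) and rho = -0.905 (exact permutation p 0.00456, adjusted p 0.0958). Pigr ran against Bpifb4 in respiratory samples, with r = -0.778 (permutation p 0.00261, adjusted p 0.0183) and rho = -0.811 (permutation p 0.00217, adjusted p 0.0152), and r was -0.761 in females, -0.795 in males, -0.82 without the 2 arrays farthest from the median Pigr signal and -0.805 without both arrays that stood apart. The part of olfactory tissue in the respiratory samples in these relations was not tested. Muc5ac and Bpifb1 had r = 0.665 and did not pass (permutation p 0.0185, adjusted p 0.0863). Of the 42 relations, 8 passed by Pearson's r, and none involved Dmbt1 or the gland markers. Some relations that did not pass depended on both arrays that stood apart, several of them of Pigr. Without these arrays r of Pigr went from 0.205 to 0.835 with macrophage markers and from 0.016 to 0.763 with Slpi. It went from 0.216 to 0.755 with Lyz2 and from -0.437 to -0.773 with neuron markers. For Bpifb4 r went from -0.517 to -0.827 with macrophage markers and from -0.396 to -0.703 with Lyz2. For Lyz2 with neuron markers it went from -0.473 to -0.72. Others stayed small, such as Pigr with Bpifb1 (0.176 and -0.079), and these changes were not tested. For Dmbt1 the r of largest size was 0.538, with Slpi (permutation p 0.0705, adjusted p 0.296).

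Over the same 12 respiratory arrays, after each sex's mean was subtracted, the 12503 named genes above background on 6 or more of these arrays were ranked by their Pearson correlation with each of the 7 genes. The 3 closest are given as a description. Muc5ac was closest to Msl1 (r = 0.954), Aldh1a1 (0.952), which oxidises retinal, and Slc25a33 (0.94). Pigr was closest to Nsun2 (0.937), Hspa5 (0.93), the main chaperone of the endoplasmic reticulum, and Dgkh (0.922). Slpi was closest to C1qa (0.938), a complement gene of macrophages that is on the marker list, Samsn1 (0.937) and Calhm6 (0.936). Lyz2 was closest to Ubd (0.986), Ccr1 (0.976), a chemokine receptor of white blood cells, and Lilrb4 (0.976). Bpifb1 was closest to Vopp1 (0.902), Grpel2 (0.876) and Akirin1 (0.872). Bpifb4 was closest to Tom1 (0.963), Cyp1a2 (0.958), the cytochrome P450 gene on the sustentacular and olfactory gland list, and Lrrc24 (0.952). Dmbt1 was closest to Pax1 (0.899), Cirbp (0.898) and Eefsec (0.895).

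Between the sexes 0 of the 7 genes were called in limma in either tissue. In respiratory epithelium, 6 female against 6 male arrays, the differences ran from -1.09 (Slpi, SE 0.77) to 0.55 (Bpifb4, SE 0.52), with 0.0141% of named genes called. At an unadjusted p under 0.05 there were 0 of the 7 genes and 3.57% of named genes. In olfactory epithelium, 2 female against 6 male arrays, 0.0211% of named genes were called, and at an unadjusted p under 0.05 there were 1 of the 7 genes and 3.91% of named genes. That gene was Muc5ac, at 216 and 302 on the female arrays against 10.1 to 131 on the male arrays, so that both female arrays lay above all male ones (log2 difference 1.6, SE 0.62, limma p 0.0175, adjusted p 0.901). The tissue contrast itself differed between the sexes for 0 of the 7 genes by limma, as for 0.0% of named genes, and at an unadjusted p under 0.05 for 0 of the 7 and 3.82% of named genes. The Slpi contrast differed most, by 2.50 (SE 1.33, limma p 0.0733, adjusted p 0.924). Olfactory neuron markers were higher in female than in male respiratory arrays, by a median log2 difference of 1.108, with 0 of 7 called. Their part in the female contrasts was not tested. In the order of group means, the olfactory groups of both sexes thus stood at one end and the respiratory groups at the other for each gene, and no difference between the sexes within a tissue passed the test.

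When the RNA integrity number was added to the fit, over the arrays that have one, 4 of the 7 genes stayed called in males (Muc5ac, Pigr, Bpifb1 and Lyz2) and 2 in females (Muc5ac and Pigr), while on the same arrays without the number 7 were called in males and 6 in females. With the number, the male difference of Slpi was -4.67 (SE 1.48, adjusted p 0.062), against -4.70 without it (SE 0.91). Dmbt1 in males was at -4.96 (SE 1.67, adjusted p 0.081), against -3.86 without it (SE 1.04). Bpifb4 in males was at 2.04 (SE 0.65, adjusted p 0.0634), against 3.65 without it (SE 0.50), and in females at 1.01 (SE 0.72, adjusted p 0.516), against 2.68. Bpifb1 was at -2.12 in males (SE 0.53, adjusted p 0.019), against -2.87 without it, and at -1.98 in females (SE 0.59, adjusted p 0.0708), against -2.75. In females Dmbt1 at -6.74 (SE 1.86, adjusted p 0.0504) and Lyz2 at -1.99 (SE 0.67, adjusted p 0.111). Bpifb4 and Bpifb1 were thus smaller with the number in both sexes. Pigr was smaller to a lesser degree, at -3.564 (SE 0.778) against -3.938 without it (SE 0.482) in males and -3.505 against -3.893 in females. Slpi hardly moved (-2.13 against -2.16 in females), Muc5ac, Lyz2 and Dmbt1 were not smaller, and no sign turned. Bpifb6, Defb4, Lcn2 and Wfdc3 also lost their male call in that fit. RNA integrity and tissue cannot be told apart in these samples.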

How the data were processed

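Total RNA of 20 nasal samples was labelled with biotin and put on arrays, per the labels' protocols. The deposited values are an intensity per probe set on a linear scale, obtained with GCOS 1.0 per the submitters' processing notes (settings not stated there). The authors' values had been scaled: trimmed of 2% at each end, every array averaged between 499.995 and 499.997. Array medians were 134 to 192, and precision rests on how many arrays there are.

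From 31099 probe sets, 57 controls were dropped. Exactly 1 gene symbol was annotated for 20826, more than 1 for 436, and 9780 are unnamed here, while Entrez IDs gave current symbols for 20758. A gene stands for its probe set of highest mean log2 signal. On log2(signal + 16), limma 3.58.1 in R 4.3.3 fitted 4 group means over all 20 arrays with an intensity trend in the variances. Signs are olfactory minus respiratory and female minus male, and SE is that of the fit. Background on an array was percentile 95 of the signals of 27 bacterial controls. A gene no brighter than this on every array of a group has its difference given as at least so many fold. The fit was tested on simulated data.

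The genes and lists were chosen with earlier results of these data known. Named genes are the 7 measured members, up to 4 genes per list with the largest called change in males, and the 3 closest by correlation, and exceptions are said in the text. Same-numbered samples of a sex come from the same rat by the labels. Deviations from the group means correlated by -0.184 to 0.246 between the tissues of a rat (consensus 0.0386). Alternatives were pseudocounts, scalings, filters, blocks, covariates, age and each array left out.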

Additional observations from a re-analysis of the deposited data

Results flagged for a closer look

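Of 21 groups of 6 arrays (7 genes in 3 groups), 2 held an array far from the others on the log2 scale, where chance flags about 1 in 20 groups. Muc5ac was lowest on male olfactory 2, at a signal of 10.1, and the gap to the next array was 0.688 of the group's range. That array is under background, and without it the other male olfactory arrays still lay at 69.8 to 131. Dmbt1 was highest on male respiratory 7, at 30336, with a gap of 0.654 of the range, on an array that stood apart on the second principal component.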

How the results depend on the processing

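With the RNA integrity covariate the count of called members was 4 in males and 2 in females, against 7 and 6. Leaving out 1 array gave 7 to 7 called members in males and 3 to 7 in females, the lowest without female olfactory 6. Of the other values for single genes 2748 kept direction and call, 58 kept direction and lost the call, 1 gained it (Slpi in females without female respiratory 6) and 0 reversed. Apart from the covariate and single arrays, members lost a call only for Lyz2 in females with those 2 groups alone in the fit (adjusted p 0.0606). Animal as a fixed or random replicate block changed no member call: with the fixed block Muc5ac was at -5.70 and Bpifb4 at 2.74 in males. Over all named genes the covariate left 1407 calls in males and 710 in females, against 4144 and 3529 on the same arrays without it, and the fixed block left 1419 in females, against 3201 as reported. Among list genes named above that were checked, the covariate also ended the male calls of Bpifb6 (1.77, adjusted p 0.354), Muc13, Clca1, Lbp, Pltp, Chia, Lcn2, Defb4, Wfdc3, Ehf, Il1b, Mmp8, Obp1f, Ermn, Ccdc113, Dnai1, Krt4 and Krt13. The male calls of Wfdc18, Wfdc1, Wfdc2, Muc1 and Egfr were not checked in these alternatives or with single arrays left out. Female calls of list genes were not checked either. The smaller set of arrays with an integrity number alone ended those of Mzb1 (0.101), Ms4a1 (0.0758), S100a8 (0.108), S100a9 (0.0566) and Krt14 (0.0533). With the covariate added Mzb1 (adjusted p 0.955), Ms4a1 (0.683), S100a8 (0.367) and S100a9 (0.359) were likewise not called. Mzb1 was then at -0.14, against -1.37 on the same arrays without the covariate. Rats of 11 weeks alone ended the male calls of Muc13 (0.0557), Defb4 (0.0557), Mzb1 and Ms4a1. A pseudocount of 64 ended that of Ms4a1 (0.0548), centring arrays on their median that of S100a8 (0.0561), and leaving out both respiratory arrays that stood apart, a choice made after seeing the data, that of Mzb1 (0.0658). The cause was not tested.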
